A study of Mus musculus with 2 samples.

Results

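The cells described here are the 116 tumor cells with the highest level of type I interferon-induced transcripts among 579 cells of 12 tumor tag pairs in a pool of mouse melanomas. A tag pair is the combination of 2 hashtags, antibody-borne DNA barcodes, that marks the cells of 1 tumor. Barcodes were taken with at least 5000 UMIs of genes (a UMI is a molecular barcode, so that 1 UMI counts 1 captured transcript), at most 15% mitochondrial UMIs and a second-highest hashtag count at least 3 times the third. Each cell was scored by the summed UMIs of Ifit1, Ifit3, Isg15, Rsad2 and Irf7 per 10000 gene UMIs. The top 20% are the interferon-active cells, the next 173 cells form the middle 30%, and the lowest 290 cells form the bottom 50%. The 12 tag pairs themselves are those with the lower interferon-induced levels in these data, so both the tumors and the cells were picked on measured values. The same filters kept 1514 of the 20917 deposited barcodes, and the other 935 belonged to 6 further tag pairs.

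The pool held 18 tumors of NMM, a mouse melanoma line with mutated NRAS, grown in Rag-/- mice, which lack T and B cells of their own. The labels name 3 conditions, Mix + T, Ag-GAS + T and Mix PBS, with 6 tumors in each. PBS was the control and the other tumors received T cells, per the design text. Cells positive for CFP, called bystander tumor cells in the labels, were sorted from the pooled tumors, from which 1 library of gene transcripts and 1 of hashtags were prepared. No source used here ties a tag pair to a condition, and the labels do not spell out Ag-GAS or Mix, so the 3 conditions were not compared. All cells share 1 library: there are no replicate samples, no test between classes of cells was run, and the intervals given (95%, exact) cover counting error only. Because the same cells supplied the score and all other transcripts, every difference between high-scoring and low-scoring cells is a description.

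Type I interferons are secreted proteins, interferon-beta and the interferon-alpha family, that cells release when they sense foreign or misplaced nucleic acid. They bind a receptor of Ifnar1 and Ifnar2, which acts through the kinases Jak1 and Tyk2 on a complex of transcription factors that includes Stat2 and Irf9. This complex binds the interferon-stimulated response element in the promoters of antiviral genes. Interferon-gamma, made by T cells and NK cells, binds another receptor and acts mainly on gamma-activated sites, and many genes answer to both kinds of interferon.

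The promoters of the scoring genes show the element itself. In RefSeq promoter windows (GRCm38.p6, 250 bases before to 50 after each start), the core GAAANNGAAA was searched on both strands. The stretches of 100 bases below, all upstream of the start, carry the match in capitals and are given for 4 scoring genes and for a chemokine and a GTPase described further on. In Isg15 3 matches overlap into 1 run.

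Isg15, chr4:156200837-156200936, minus strand: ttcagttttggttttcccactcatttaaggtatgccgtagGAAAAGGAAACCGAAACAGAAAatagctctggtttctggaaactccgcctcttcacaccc
Ifit1, chr19:34640749-34640848, plus strand: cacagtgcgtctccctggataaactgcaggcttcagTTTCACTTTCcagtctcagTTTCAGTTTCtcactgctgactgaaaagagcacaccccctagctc
Ifit3, chr19:34583344-34583443, plus strand: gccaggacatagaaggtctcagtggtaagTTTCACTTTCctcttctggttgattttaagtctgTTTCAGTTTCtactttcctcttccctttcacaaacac
Rsad2, chr12:26456519-26456618, minus strand: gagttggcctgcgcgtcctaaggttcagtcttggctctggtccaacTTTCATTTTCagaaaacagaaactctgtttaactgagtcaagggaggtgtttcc
Cxcl10, chr5:92349040-92349139, minus strand: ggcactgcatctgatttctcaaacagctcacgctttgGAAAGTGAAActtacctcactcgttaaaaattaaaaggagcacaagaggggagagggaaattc
Gbp2, chr3:142620558-142620657, plus strand: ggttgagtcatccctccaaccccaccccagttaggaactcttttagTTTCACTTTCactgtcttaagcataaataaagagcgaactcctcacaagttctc

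The matches begin 104 and 85 bases before the start in Ifit1, 156 and 122 in Ifit3, 78, 72 and 66 in Isg15, 120 in Rsad2, 213 in Cxcl10 and 59 in Gbp2. No match to these letters lies in the windows of Irf7, the fifth scoring gene, of Ifnb1, Ifit2 or Cmpk2.

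The score ran without a gap across the limit. The lowest interferon-active cell scored 43.8 and the highest cell outside scored 43.5. Median scores were 61.2 in interferon-active cells, 28.1 in the middle 30% and 9.61 in the bottom 50%. The 3 highest cells scored 237, 180 and 154. A top share cut from a continuous score is a range of cells and not a separate cell type.

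Interferon-active cells were present in all 12 tag pairs, but not evenly. Tag pair 5/7 held the highest share, with 27 of 74 cells (36.5%, interval 25.6 to 48.5). Tag pair 1/3 held the lowest, with 2 of 21 cells (9.52%, interval 1.17 to 30.4), and the intervals of these 2 pairs overlap. Tag pair 6/10, with more cells, held 10 of 77 (12.99%, interval 6.41 to 22.6), and its interval does not overlap that of 5/7. It was the only pair of the 12 of which this holds. It was not low by median score, with 22.7 against a median of 19.3 over the 12 pairs. The median over the 12 pairs was 17.95%. In the 6 tag pairs outside the rule, 397 of 935 cells (42.5%, interval 39.3 to 45.7) reached the same score, with 31.9% to 51.4% by pair. The score of the median cell was 11.7 to 31.1 in the 12 pairs and 32.0 to 45.2 in the other 6. Because the 12 pairs were picked for lower interferon-induced levels, this separation of medians largely follows from that choice. Single cells of the 2 sets overlapped. The highest cell of the whole pool was in tag pair 2/4, 1 of the 12.

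**Figure D1:**
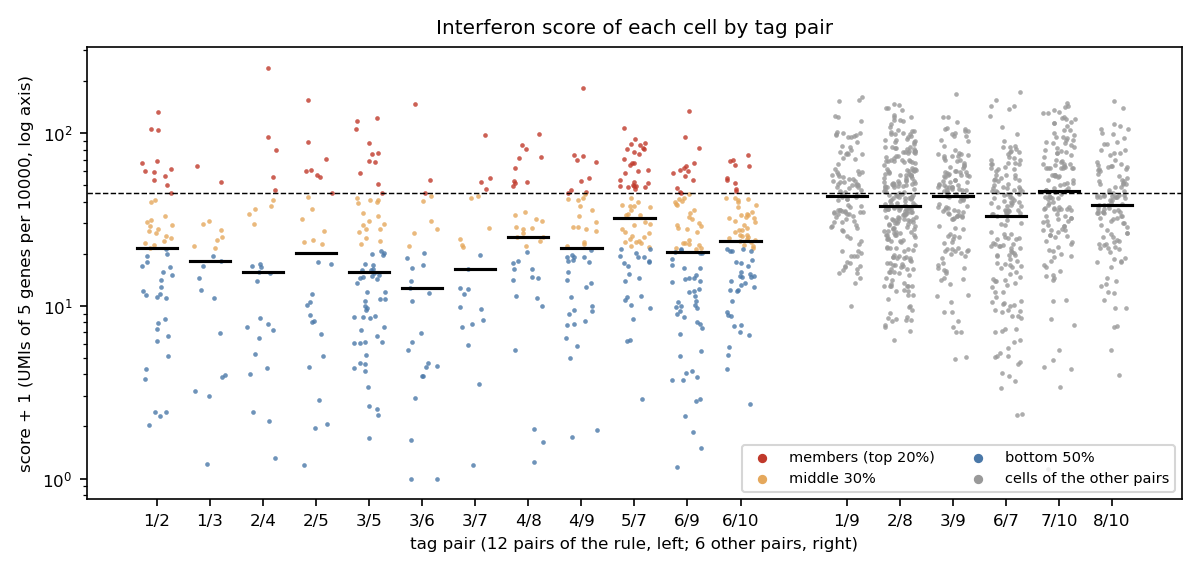
Score of each cell by tag pair, plotted as UMIs of the 5 scoring genes per 10000 gene UMIs plus 1 on a log axis, with black bars at the median of each pair and a dashed line at the lowest interferon-active cell. Red cells lie in all 12 pairs of the rule, and the medians of the other 6 pairs (grey) lie above those of the 12, which were picked for lower interferon-induced levels.

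Interferon-active cells had a median of 38897 gene UMIs, against 45867 in the bottom 50%, and median mitochondrial shares of 2.78% and 2.87%. Their second-highest hashtag count had a median of 354, against 210.5 in the bottom 50%. Depth was therefore set equal before cells were compared, by drawing 20000 UMIs from each cell, which left out 8 interferon-active cells and 20 bottom cells and kept 108 and 270. Genes seen per thinned cell were then 4342 and 4375 at the median. Any part of the hashtag difference in the results was not tested. Levels are given in CPM (UMIs scaled to a total of 1000000 gene UMIs), with bottom cells weighted to the tag pair make-up of the interferon-active cells. Folds are log2 values with 5 CPM added to both sides, and a gene is called higher or lower at 1.5-fold. Ranges over tag pairs cover the 8 pairs with at least 5 thinned cells in each class. Overlap of these ranges between interferon-active and bottom cells is given for chosen genes and lists only. The share of all tested genes without overlap between these classes was not counted.

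The 5 scoring genes chose the cells, and their values describe that choice. Isg15, a ubiquitin-like protein that is attached to other proteins, was at 3513 CPM in interferon-active cells and 705 CPM in bottom cells. By tag pair it ran from 3150 to 3730 CPM (median 3529) in the former and from 457 to 880 CPM (median 702) in the latter, with no overlap. Ifit3, which binds foreign RNA together with Ifit1, was at 1222 and 61.3 CPM, and Ifit1 at 1115 and 117 CPM. Rsad2, or viperin, makes an antiviral nucleotide and differed by the widest ratio of the 5, with 544 and 14.8 CPM. Irf7, a transcription factor that amplifies interferon production, differed least, with 431 and 142 CPM. Isg15 gave 51.5% of the UMIs of the 5 genes in interferon-active cells and 67.7% in bottom cells. All 5 genes had a UMI in 89 of 108 interferon-active cells (82.4%) and in 28 of 270 bottom cells (10.4%).

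Low levels in bottom cells need care, because barcodes under 800 UMIs, which mostly hold RNA from outside cells, carried the same transcripts. In them Isg15 was at 2258 CPM, Ifit3 at 521 CPM and Rsad2 at 143 CPM, above the bottom cells in each case. Gene lists described further on were in these barcodes too. There the interferon-gamma list was at 3009 CPM, against 3011 CPM in interferon-active cells, and class I at 13156 against 9746 CPM. Chemokines were at 3495 against 3624 CPM, and other type I interferon-induced genes at 9913 against 13038 CPM. Other lists were far higher in these barcodes than in the cells. Class II MHC genes were at 111 CPM there, against 3.70 CPM in interferon-active and 3.34 CPM in bottom cells. Fibroblast markers were at 482 CPM, against 144 and 82.3 CPM. How much of the signal of bottom or interferon-active cells is free RNA was not tested. The pool holds no named cell type that should lack these genes.

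Across the 8080 genes of at least 10 CPM in either class, 458 (5.67%) were called higher in interferon-active cells and 353 (4.37%) lower. The median log2 fold of all tested genes was -0.03. Of the higher genes 191, and of the lower genes 80, had the same direction in all 8 tag pairs. The calls came from the same cells, which favours agreement, and the share over all tested genes was not counted. Single calls were less stable than the totals. With 10000 UMIs a cell 348 of the higher and 184 of the lower genes were called again. With a mitochondrial limit of 8% it was 373 and 208, although 107 and 269 thinned cells remained, against 108 and 270. The random draw of UMIs can change whenever a cell is removed, so its part and that of the limit cannot be told apart. Among the higher genes 116 belong to the gene lists used here and 342 do not.

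Of the 43 other type I interferon-induced genes matched in the data, 40 were tested and all 40 were called higher. Their summed level was 13038 CPM (interval 12886 to 13191) in interferon-active cells and 4850 CPM in bottom cells, a log2 fold of 1.43, with 1.05 to 1.63 by tag pair. The middle 30% lay between, at 8686 CPM. Ifit3b, a close relative of Ifit3, had the highest fold of the list, with 371 and 17.7 CPM and a log2 fold of 4.05 (3.22 to 5.19 by pair). The authors' counting may split reads between such near-identical copies, so Ifit3 and Ifit3b are uncertain one by one. Cmpk2, a mitochondrial nucleotide kinase next to Rsad2 in the genome, was at 192 and 18.1 CPM, and a UMI was seen in 82.4% of interferon-active and 21.1% of bottom cells. Ifit2 was at 117 and 9.92 CPM, a log2 fold of 3.03.

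Usp18, which removes Isg15 from proteins and blocks the receptor, was at 488 and 95.6 CPM, and by tag pair at 430 to 545 CPM against 71.4 to 126 CPM, with no overlap. Bst2, which tethers budding virions, had a small log2 fold of 0.93 on high levels, 4241 and 2229 CPM. Ifi27l2a was less even, at 549 and 191 CPM overall but higher in only 6 of 8 pairs.

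The label speaks of type I interferon, and the data do not separate it from interferon-gamma by gene list. All 19 tested genes of the interferon-gamma list were called higher as well. The list was at 3011 CPM (interval 2938 to 3085) against 492 CPM, a log2 fold of 2.60, with 2.38 to 2.85 by tag pair. This fold was wider than that of the type I list in each of the 8 pairs. However, the type I list leaves out the 5 scoring genes, which chose the cells and summed to a log2 fold of 2.71. It also holds genes already high in bottom cells, such as Bst2. The 2 lists differ in make-up, so their folds do not rank the 2 kinds of interferon. Iigp1, a GTPase that attacks the vacuoles of parasites, was at 838 and 101 CPM, and by pair at 650 to 1159 CPM against 35.7 to 138 CPM. Igtp, of the same GTPase family, was at 213 and 25.1 CPM, and Gbp2, a guanylate-binding protein, at 227 and 30.3 CPM. For these 3 genes, chosen from the list, the levels of the 2 classes did not overlap across the 8 pairs. How common this is among all tested genes was not counted. Gbp5, which promotes inflammasome assembly, was at 68.1 and 5.49 CPM. Interferon-gamma itself, Ifng, had 0 UMIs in every class and in free RNA.

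Class II MHC genes, which are known for their answer to interferon-gamma through Ciita, stayed near 0. Their 9 members summed to 3.70 CPM in interferon-active cells and 3.34 CPM in bottom cells, and none reached the minimum for a fold. In all cells of the other 6 tag pairs they summed to 368 CPM, carried by a minority of cells. The median thinned cell there had 0 class II UMIs, the 95th percentile was 46.7 and the highest cell had 186.

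Class I antigen presentation was higher by less. Of 20 tested genes, 16 were called higher and 0 lower, and the sum was 9746 CPM (interval 9615 to 9878) against 5858 CPM, a log2 fold of 0.73, with 0.33 to 0.96 by pair. The immunoproteasome subunits Psmb9 and Psmb8, which reshape peptide cutting, had log2 folds of 1.71 and 1.56, and the peptide transporter chains Tap1 and Tap2 had 1.68 and 1.93. The surface molecules differed less, with 0.67 for the light chain B2m, 0.80 for H2-K1 and 0.73 for H2-D1. B2m ran from 1800 to 2908 CPM by tag pair against 1308 to 1766 CPM, so the classes did not overlap even at this size. The general chaperones Canx (-0.05) and Calr (0.12) stayed within 1.5-fold.

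**Figure D2:**
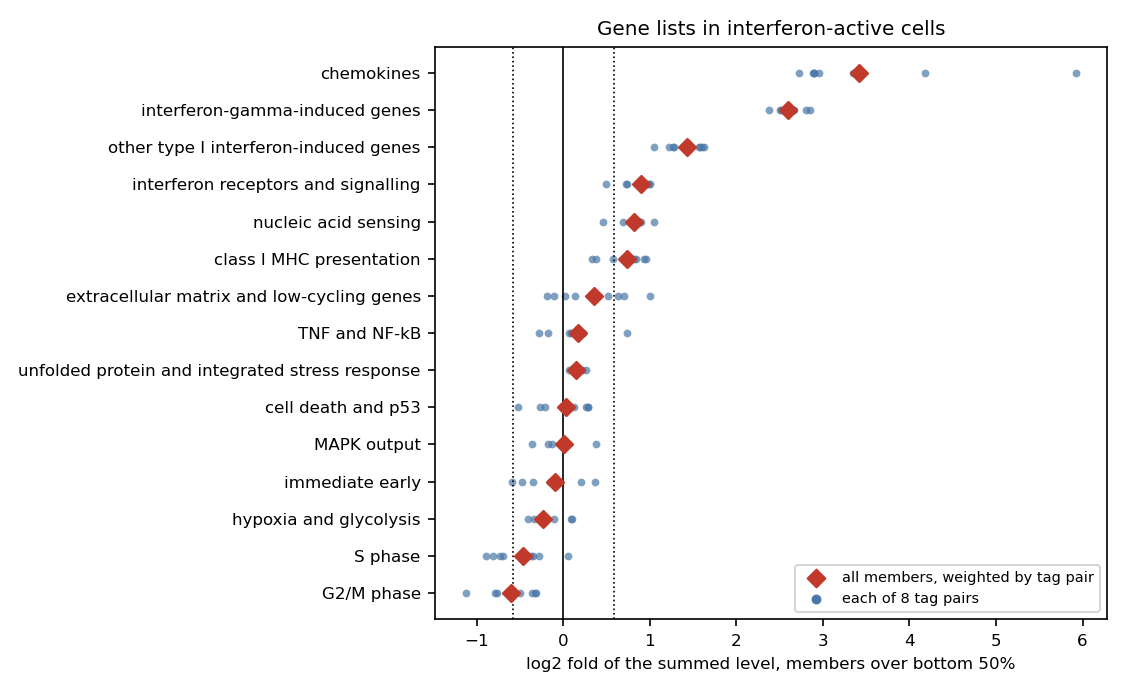
Log2 fold of the summed level of 15 gene lists, interferon-active cells over bottom 50%, with red diamonds for all cells weighted by tag pair, blue points for the 8 tag pairs and dotted lines at 1.5-fold. The 6 interferon-related lists at the top lie above 0 in every pair, the G2/M list lies below 0 in every pair and the S phase list in 7 of 8.

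Among signalling genes 5 of 17 were called higher, among them Stat2, Irf1, Irf2 and Jak2. Stat2 was at 119 and 28.0 CPM. Irf1, a factor induced mainly through gamma-activated sites, was at 74.5 and 16.8 CPM, but 1 of 8 pairs had the opposite direction. Of the nucleic acid sensing genes 5 of 11 were called higher, among them Samhd1, Adar, Tlr3 and Trim25. Tlr3, the receptor for double-stranded RNA, was at 39.4 and 6.55 CPM and Samhd1, which breaks down nucleotides, at 152 and 60.2 CPM. Ifih1, the RNA sensor MDA5, was placed in the type I list and was at 218 and 44.7 CPM.

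The checkpoint ligand gene Cd274 had a UMI in 28 of 108 interferon-active cells (25.9%, interval 17.97 to 35.2) and in 8 of 270 bottom cells (2.96%, interval 1.29 to 5.75). Death genes of the necroptosis and pyroptosis kind were also among those called higher. Mlkl, which ruptures the membrane in necroptosis, was at 64.4 and 32.6 CPM, Casp1 at 36.1 and 10.0 CPM, and Gsdmd at 19.0 and 6.08 CPM. The death ligand Tnfsf10 had a UMI in 24.1% of interferon-active and 2.96% of bottom cells. The whole list of cell death and p53 genes did not differ in sum, with 1170 and 1143 CPM, and 7 of its 19 tested genes were higher and 1 lower.

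Of the 15 lists in the plot of list folds, chemokines had the highest fold and the widest range by pair. The list was at 3624 CPM (interval 3544 to 3705) against 336 CPM, a log2 fold of 3.41, but the range by tag pair was 2.72 to 5.93. Only 4 of 7 tested genes were called higher, Cxcl10, Ccl5, Ccl2 and Ccl7, and 1 was lower, Cxcl1. Cxcl10, which attracts T cells through Cxcr3, was at 2485 and 77.8 CPM, a log2 fold of 4.91. By tag pair it ran from 1450 to 6675 CPM (median 2002) in interferon-active cells and from 17.9 to 175 CPM (median 52.0) in bottom cells, with no overlap. Within interferon-active cells it varied widely: the median thinned cell had 24 UMIs and the highest 331, and 8 cells had none.

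Ccl5, which attracts T cells and monocytes, was carried by few cells. A UMI was seen in 31 of 108 interferon-active cells (28.7%) and in 40 of 270 bottom cells (14.8%), and the highest cell held 22.2% of its UMIs in interferon-active cells. In bottom cells Ccl5 was at 159 to 176 CPM in tag pairs 4/8, 6/9 and 6/10 and at 5.00 to 16.7 CPM in the other 5 pairs. Ccl2, which attracts monocytes, was at 588 and 123 CPM but ran the other way in tag pair 3/5, with 150 and 209 CPM.

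Interferon-beta transcripts were confined to very few of these cells. Ifnb1 had 220 UMIs in 4 of the 579 cells, counted before thinning. A single cell of tag pair 4/9, ranked second by score, held 196 of them among 72003 gene UMIs, together with 1128 UMIs of Cxcl10, 687 of Ccl5 and 369 of Rsad2. The cell ranked first, of tag pair 2/4, held 22 Ifnb1 UMIs among only 7497 gene UMIs, and its mitochondrial share of 14.5% was just inside the limit. The other two, a cell just above the limit in tag pair 1/2 and a middle cell in 6/10, held 1 UMI each.

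No bottom cell had an Ifnb1 UMI. After thinning 0 of 270 bottom cells had one, which, at 3 counts, allows a share of cells with a UMI of up to 1.11%. In the other 6 tag pairs 2 of 935 cells held 30 Ifnb1 UMIs, 29 of them in a cell of tag pair 3/9, and free RNA held 14. Interferon-alpha transcripts came to 1 UMI of Ifna4 and 2 of Ifna5, each in 1 interferon-active cell. The 4 cells had 0 UMIs of Lyz2, Ptprc and Siglech, markers of myeloid cells, of all leukocytes and of plasmacytoid dendritic cells. Trbc2, a T cell receptor gene that is seen in all classes here, had 19 UMIs in the middle cell of 6/10, 2 in the cell of 4/9 and 0 in the other two. Without the 2 highest-scoring cells, a choice made after their Ifnb1 was seen, folds rested on 107 cells, since thinning had already left out the cell ranked first. The chemokine list then had a log2 fold of 3.27 and the type I list 1.42, while Ccl5 went from 2.79 to 2.46 and Ccl2 from 2.21 to 1.91.

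Proliferation genes were lower in interferon-active cells. Of 50 tested G2/M genes 23 were called lower and 0 higher, and the sum was 3497 CPM (interval 3418 to 3577) against 5299 CPM, a log2 fold of -0.60, below 0 in all 8 pairs. Of 41 tested S phase genes 14 were lower and 0 higher, with 1446 and 2002 CPM, a log2 fold of -0.47, and 1 of 8 pairs was above 0. Mki67, a marker of cycling cells, was at 53.2 and 106 CPM, and Cdc6, which loads the replicative helicase, at 6.48 and 21.5 CPM, lower in 8 of 8 pairs. Mki67 levels by pair overlapped, with 10.0 to 93.5 CPM and 63.0 to 183 CPM.

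A smaller share of interferon-active cells had high G2/M counts. Counts of thinned cells fell into a low and a high range, and a limit of 50 UMIs was set between them after this was seen. At or above it were 38 of 108 interferon-active cells (35.2%, interval 26.2 to 45.0), 55 of 159 middle cells (34.6%, interval 27.2 to 42.5) and 133 of 270 bottom cells (49.3%, interval 43.1 to 55.4). The share was lower in interferon-active than in bottom cells in all 8 tag pairs, but the shares overlapped, with 62.5% as the highest in interferon-active cells and 38.1% as the lowest in bottom cells. In interferon-active cells below the limit the median count was 18.5, against 19 in bottom cells, and at or above it 147 against 174. Near the limit, 4 and 11 cells lay between 40 and 60 UMIs. Among interferon-active cells the score had a Spearman correlation of -0.00093 with G2/M counts over 108 cells of 1 library.

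**Figure D3:**
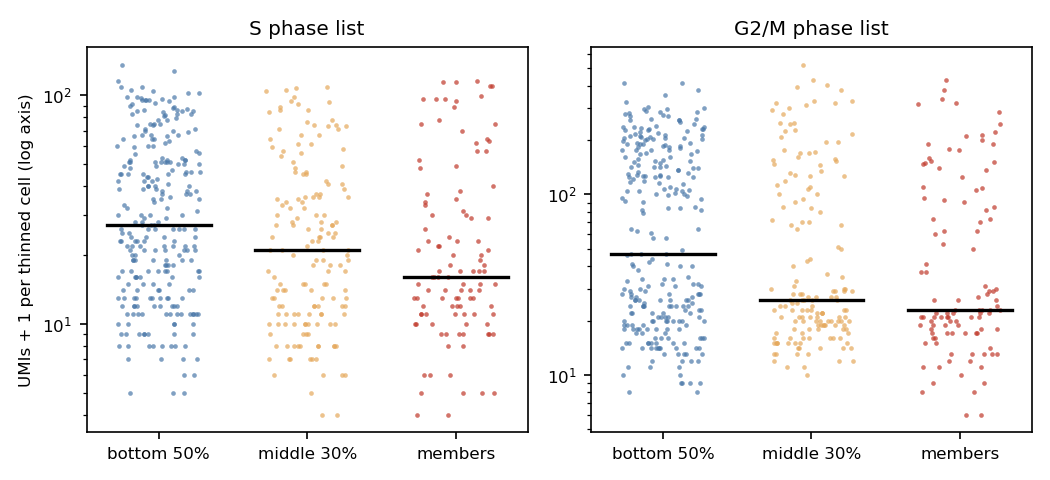
UMIs of the S phase and G2/M lists per cell thinned to 20000 UMIs, plus 1 on a log axis, with black bars at medians. G2/M medians are 46 UMIs in the bottom 50%, 25 in the middle 30% and 22 in interferon-active cells, and the high range is filled in all 3 classes.

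The 12 genes named for the highest folds outside the lists included Ifi206, Ifi213 and Ifi208 of the p200 family, known as DNA sensors or chromatin proteins. These had log2 folds of 2.87, 2.50 and 2.40, and the GTPase Ifi47 had 2.69. Trim12a and Trim30d, of the tripartite motif family, had 2.38 and 2.04, the helicase-like Znfx1 1.91 and the poly(A) polymerase Tent5a 1.83. Tent5a had the opposite direction in 1 of 8 pairs and the others named here in none. Genes outside the lists were named only if most pairs shared a direction, so this agreement follows in part from that choice.

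Among the 8 lowest genes named outside the lists were Mthfd2, Mthfd1 and Cth. Mthfd2, a mitochondrial folate enzyme, was at 44.9 and 115 CPM, its cytosolic relative Mthfd1 at 13.9 and 38.3 CPM, and Cth, which makes cysteine, at 11.1 and 30.8 CPM. Mthfd1 and Cth were lower in 8 of 8 pairs and Mthfd2 in 7. A shared direction in most pairs was again a condition for naming these genes, so this agreement is not separate evidence. Among genes of the stress and immediate early lists, Asns, which makes asparagine, was at 55.6 and 97.3 CPM, and Myc, a growth factor-driven transcription factor, at 81.0 and 152 CPM. The cytokine gene Il11 was at 114 and 297 CPM but was higher in 2 of 8 pairs. Of the stress, hypoxia, MAPK and immediate early lists, no sum differed by 1.5-fold, with log2 folds from -0.23 to 0.15.

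Matrix genes were higher in some tag pairs. Their list was at 8463 and 6631 CPM, a log2 fold of 0.35, with 7 of 27 called higher and a range by pair of -0.18 to 1.01. Apod, a lipid-binding protein, was at 176 and 38.8 CPM and higher in 8 of 8 pairs, although levels overlapped. The collagen gene Col3a1 was at 1284 and 740 CPM.

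Markers of other cell types were checked beside these results. Of 16 T and NK cell markers 14 were at 0 in interferon-active cells, among them Cd3d, Cd3e, Cd8a, Ptprc and Nkg7, and nearly all the rest was Trbc2, at 130 CPM against 138 CPM in bottom cells. All 6 B cell markers were at 0. Macrophage and dendritic cell markers summed to 5.56 CPM against 4.17 CPM, with 14 of 18 at 0, Lyz2 and C1qa among them. Fibroblast markers were at 144 CPM against 82.3 CPM, with 2 of 7 at 0, and were higher in 6 of 8 pairs. Most of this was Ly6c1, at 90.3 and 38.1 CPM. Of the 3 fibroblast markers tested 2 were called higher and 0 lower, and the cause was not tested. Endothelial and pericyte markers were at 81.5 CPM against 68.9 CPM, with 4 of 10 at 0. The highest of them was Cdh5, at 36.1 and 28.8 CPM. The melanocyte markers Sox10, Tyr, Dct, Pmel and Mlana were at 0, and only Mitf, Pax3 and Slc24a5 of the 12 had a UMI, so the labelled melanoma identity rests here on the CFP sort and not on pigment genes.

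Promoter matches were counted in the higher genes and in all tested genes. Of the 355 higher genes with a RefSeq promoter, 78 (21.97%) held GAAANNGAAA, against 2.83% of lower genes, 4.18% of all tested genes and 3.99% of the 27025 genes in the table. Higher genes outside the lists held it in 16.04%. The gamma-activated core TTCNNNGAA was in 13.0% of higher genes, 5.30% of lower, 7.91% of tested genes and 9.55% of all genes in the table. Higher genes outside the lists held it in 9.70%, close to that last share. Of the 16 interferon-gamma list genes with a promoter, 62.5% held the first core and 56.3% the second. Of the 20 class I genes 25.0% and 10.0% held them. These are matches of letters and not measured binding.

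High-scoring cells of the other 6 tag pairs overlapped in the sum of the scoring genes but had more interferon-gamma-induced and class I transcripts. For this comparison, added after the data were seen, the 397 cells with a score in the range of the interferon-active cells were taken, of which 360 had 20000 UMIs. Their median score was 65.2, against 61.2. Both sets were chosen on interferon levels, so the comparison is a description, in which 8 tag pairs stand against 6. Of 8006 genes, 118 (1.47%) were below the other pairs without overlap in the interferon-active cells and 33 (0.412%) above, and 266 (3.32%) were at least 1.5-fold lower and 220 (2.75%) higher.

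The 5 scoring genes summed to 6825 CPM in interferon-active cells and 7341 CPM in the high-scoring cells of the other pairs, with overlap by pair. Of the 5, Irf7 alone lay below without overlap, narrowly, with 313 to 527 CPM by pair against 530 to 602 CPM. Both sets were chosen on a sum that includes Irf7, and 0 of the 5 genes were at least 1.5-fold lower. The type I list was at 13038 against 16483 CPM, and 7 of its 41 genes lay below without overlap. The interferon-gamma list was at 3011 against 6412 CPM, with 14 of 22 genes below, and class I at 9746 against 20164 CPM, with 19 of 22. By tag pair the class I list ran from 7538 to 11204 CPM and from 18984 to 20893 CPM. Single genes stood further apart, with Psmb9 at 144 against 600 CPM, H2-K1 at 1049 against 3334 CPM and Gbp2 at 227 against 712 CPM.

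Class II genes summed to 3.70 CPM in interferon-active cells and 443 CPM in those cells. Ly6c1, an interferon-responsive surface protein, was at 90.3 and 712 CPM. Cxcl10 was at 2485 against 3483 CPM, and the chemokine list overlapped by pair. The G2/M list was at 3497 against 3507 CPM and the S phase list at 1446 against 1319 CPM, each with overlap. Which conditions these tag pairs hold is not known here, so condition and tumor cannot be told apart.

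**Figure D4:**
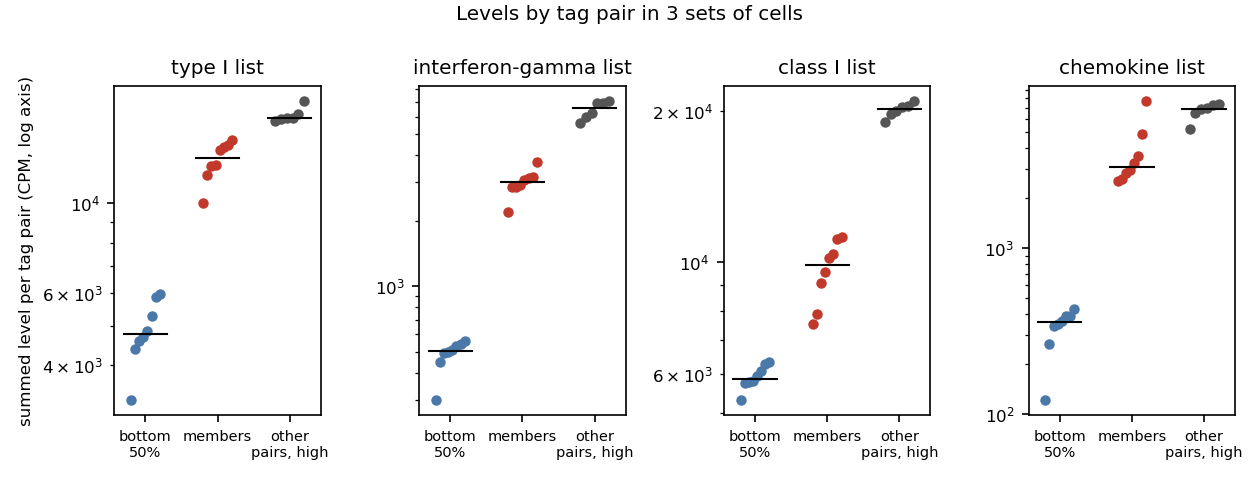
Summed level in CPM (log axis) of 4 gene lists in each tag pair, for the bottom 50% and the interferon-active cells of 8 pairs and for the high-scoring cells of the 6 other pairs, with black bars at medians. Interferon-active cells lie between the other sets without overlap for the type I, interferon-gamma and class I lists, and overlap the other pairs for chemokines.

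Few interferon-active cells reached the class I level of the other pairs. Of 108 interferon-active cells, 63 (58.3%) had more type I list UMIs than the median cell of all 844 thinned cells of the other pairs. For the interferon-gamma list 19 cells did (17.6%), and for class I only 5 (4.63%, interval 1.52 to 10.5). Against the median bottom cell the numbers were 108, 107 and 102. Among interferon-active cells the score had a Spearman correlation of 0.62 with the type I list, 0.60 with the interferon-gamma list and 0.23 with class I, over 108 cells that share 1 library.

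**Figure D5:**
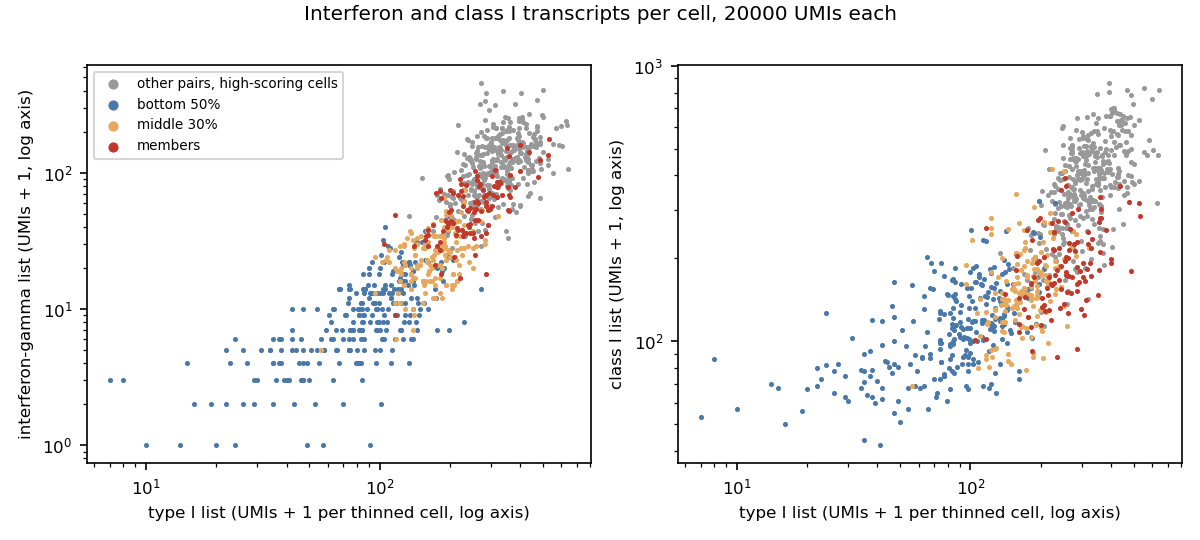
UMIs plus 1 per cell thinned to 20000 UMIs, on log axes, with the type I list across and the interferon-gamma list (left) or class I list (right) upward. Interferon-active cells (red) have medians of 253.5 type I, 53 interferon-gamma and 180 class I UMIs, and bottom cells (blue) 90, 8 and 110.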

How the data were processed

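The authors deposited unnormalized UMI counts for genes and hashtags. Cell Ranger is version 6.1.2 per the file headers and 2.1.1, with GRCm38, in the submitters' processing notes. No test between classes of cells was run, since the pool is 1 sample and the cells were chosen on the contrast described. Genes were called by size. Cells, classes, thinning (20000 UMIs, seed 1), weighting by tag pair and folds (5 CPM added) were computed in Python 3.11.15 (numpy 2.4.6, scipy 1.17.1, pandas 2.3.3), and the fold step was tested on simulated data. No doublet caller was run: the hashtag filter removed 143 barcodes, and doublets within a tumor are not seen. The mitochondrial filter removed 199. No barcode was listed more than once.

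The cells, the 27 gene lists (503 of 508 genes matched, Mx1, Mx2, Cxcl11, Sting1 and Mb21d1 not analysed here) and the rules were chosen with earlier results of these data known. Named genes are the 5 scoring genes, up to 6 per list by fold, list genes of at least 200 CPM, and the 12 highest and 8 lowest outside the lists among genes of at least 20 CPM with 1 direction in at least 75% of pairs. Genes outside this rule (Cd274, and those at 0) were named after their values were seen. Alternatives covered thinning, weighting, filters, pseudocounts, ranking and scaling. The matrix held 93843218 gene UMIs. Some items are not reported here.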

Additional observations from a re-analysis of the deposited data

Results flagged for a closer look

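The chemokine list of tag pair 2/5 stood apart from the other 7 pairs, with a log2 fold of 5.93 between interferon-active and bottom cells. Its level was 7700 CPM in 8 interferon-active cells and 121 CPM in 14 bottom cells. The next pair was 4/9, at 4.18. Each of 9 lists was looked at over the 8 pairs with Dixon's test for an outlier, and 1 had such a value. By chance about 1 in 20 lists has one, so this may be chance. Cxcl10 in the same pair was at 6675 and 17.9 CPM.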

How the results depend on the processing

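Counts of genes depended on the settings more than list levels did. Against 458 higher and 353 lower genes, there were 913 and 961 after thinning to 5000 UMIs, 218 and 102 with a minimum of 50 CPM, and 255 and 75 with a pseudocount of 20 CPM. Higher and lower genes came to 610 and 577 with 10000 UMIs, 378 and 207 without thinning, 610 and 575 with a pseudocount of 1 CPM, 640 and 661 with the top 10% as members, 614 and 580 when cells were ranked on a random part of their UMIs and measured in the rest, and 389 and 213 when ranked by mean log values. Of the 353 lower genes, 147 were called again without thinning and 186 on the split UMIs, and of the 458 higher genes 341 and 335. The cause was not tested, except that a stricter minimum leaves fewer genes. Of all called genes 56.5% were higher, against 77.3% with a pseudocount of 20 CPM, 68.1% with a minimum of 50 CPM and 61.1% with interferon and class I genes left out of the total. Leaving out each tag pair in turn gave 451 to 522 higher and 360 to 404 lower genes. None of the 9 summed lists recomputed (type I, interferon-gamma, signalling, class I, chemokines, nucleic acid sensing, S phase, G2/M, matrix) changed sign. With the top 10%, the interferon-gamma list moved to 2.91 and nucleic acid sensing to 1.00, and with a hashtag ratio of at least 10 the interferon-gamma list moved to 2.36. Ranked and measured on separate UMIs, the type I list was at 1.44, the interferon-gamma list at 2.53 and G2/M at -0.62. Of 185 named genes 1 that was called changed sign, Cdc25c, at 0.19 with 10000 UMIs. The share of interferon-active cells ran from 29.7% to 38.1% in tag pair 5/7 and was as low as 4.76% in 1/3, when ranked by mean log values. No paired analysis was possible because the labelled groups, the gene and hashtag libraries of 1 pool, are not compared; folds within tag pairs compare cells of the same tumor. Dropping the 2 highest-scoring cells and matching the score range of the other pairs were chosen after seeing the data.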
